A study of Mus musculus with 2 samples.

Results

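The genes described here encode the axon guidance molecules of the semaphorin, ephrin, Slit and netrin families and their receptors. Members were found by gene symbol, a rule that uses no measured value: symbols that begin with Sema, Plxn, Efna, Efnb, Epha, Ephb or Unc5, and the Slit, Robo, neuropilin, netrin and Dcc genes. The search found 69 symbols, of which 53 had a signal above background in at least 1 array, among 12473 such genes of 18193 on the array. Of the 69 symbols, 3 (Unc50, Unc5cl and Plxna4os1) share the letters and are no guidance receptors, and without them there were 66 genes, 52 of them measured.

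RNA came from the optic nerve and optic tract, the white matter that carries the axons of the retina, of male mice. The CD47 KO mice, which are labelled CD47 null, were 12 to 15 weeks of age, and the wild-type (WT) mice were 13 to 15 weeks of age. Each genotype was 1 pool of total RNA on 1 Affymetrix GeneChip, so the spread between mice is unknown and no test of the genotypes was possible. The number of mice behind each pool is given in opposite ways by the labels, as 4 CD47 KO and 5 WT mice in 1 place, which the methods of the study also give, and as 5 CD47 KO and 4 WT mice in another.

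Guidance cues steer growing axons by attraction or repulsion and are retained in the adult nervous system, where neurons, glia, vessel cells and meningeal cells express them. Secreted class 3 semaphorins mostly act through neuropilins paired with plexins, and membrane-bound semaphorins of classes 4 to 7 mostly bind plexins directly. Ephrins are themselves anchored in the membrane and signal to Eph receptors on the neighbouring cell, Slits bind Robo receptors, and netrins act through Dcc and the Unc5 receptors. Many of them shape the path of retinal axons through the optic nerve, chiasm and tract, and several act on oligodendrocyte precursors.

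Values are MAS5 signal intensities, written as signal, from the brightest probe set of each gene. Each array had been scaled to the same trimmed mean, and the floor that separates signal from background was the median of both arrays together, 106.4. A log2 ratio is that of CD47 KO over WT after values under the floor were set to it, so a gene with 1 array under the floor has a bound, written "at least". A signal also depends on its probes, so signals of different genes were not compared as amounts. The only repeat measurement was between probe sets of 1 gene, where each of a pair was above the floor on both arrays, and their log2 ratios differed with an SD of 0.36 over 11653 pairs, and the difference stayed under 0.74 in 95% of them. For guidance genes this SD was 0.37 over 49 pairs.

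The Cd47 gene was read first as a check of the labels. Its brightest probe set had a signal of 1346 in CD47 KO and 3928 in WT, and the 3 that passed the floor on both arrays had log2 ratios of -1.55 to -1.34. Whether these probe sets lie within the disrupted part of the gene was not determined. The tissue had the markers of white matter, since all 11 measured of 13 myelin genes were above the floor in both arrays, with a summed signal of 282000 in CD47 KO and 261300 in WT. Markers of other cells moved too. The 13 measured of 14 microglial markers summed to 83230 in CD47 KO and 41710 in WT, with 11 higher in CD47 KO. The 16 neuronal markers summed to 15960 in CD47 KO and 25920 in WT, with 14 of the 15 measured lower in CD47 KO. All such sums took in listed genes that were under the floor, and bright genes weigh most in them. Striatal markers summed to 2078 in CD47 KO and 4479 in WT (7 of 10 measured, all 7 lower). Pituitary markers summed to 8909 in CD47 KO and 3562 in WT (5 of 6 measured, 3 of them higher). Gh made up most of this sum, with 6908 in CD47 KO and 2191 in WT, while Cga had 184.6 in CD47 KO and 460.2 in WT. Hypothalamic markers summed to 28420 in CD47 KO and 35260 in WT (7 of 8 measured, 6 of them lower). Avp made up most of this sum, with 22360 in CD47 KO and 24980 in WT, while Pmch had 130.2 in CD47 KO and 893.5 in WT. Pomc, which was higher, is also on the pituitary list. In pooled bulk tissue, fewer cells of a type, less RNA per cell and differing amounts of neighbouring tissue in the pools cannot be told apart.

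As a whole, the guidance genes were centred on no change. Of the 53 measured genes, 27 (50.9%) had a higher signal in CD47 KO and 26 a lower one, with a median log2 ratio of 0.01, against 46.8% higher and a median of -0.02 over all 12473 measured genes. With bounds counted at the size the floor allows, 4 genes were over 1.5-fold higher in CD47 KO (Plxna4, Ephb6, Sema4b and Efna1), which is 7.55% against 4.02% of all genes. Over 1.5-fold lower in CD47 KO were 5 genes, Sema3f, Slit1, Epha10, Epha5 and Plxna2, which is 9.43% against 4.68% of all genes. None was over 2-fold higher in CD47 KO, against 1.21% of all genes, and 1, Sema3f, was over 2-fold lower, against 0.818%. When all measured genes were split at the median of their mean log2 signal, all 9 genes over 1.5-fold were on the dimmer side, which held 32 guidance genes, and none of the 20 on the brighter side passed 1.5-fold in either direction, where 2.42% of all genes were higher and 1.96% lower by that much. On the dimmer side 12.5% of the guidance genes were over 1.5-fold higher in CD47 KO and 15.6% over 1.5-fold lower, against 5.63% and 7.41% of all genes. The log2 ratios of Sema3f, Slit1, Plxna4 and Ephb6 were beyond 0.74 in size, under which 95% of differences between probe sets of 1 gene stayed. That range comes from probe sets above the floor on both arrays, whereas Sema3f and Ephb6 had 1 array under it. It compares probe sets on the same arrays, so it holds no spread between mice or hybridisations. It cannot tell whether any of these differences exceeds that spread.

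**Figure D1:**
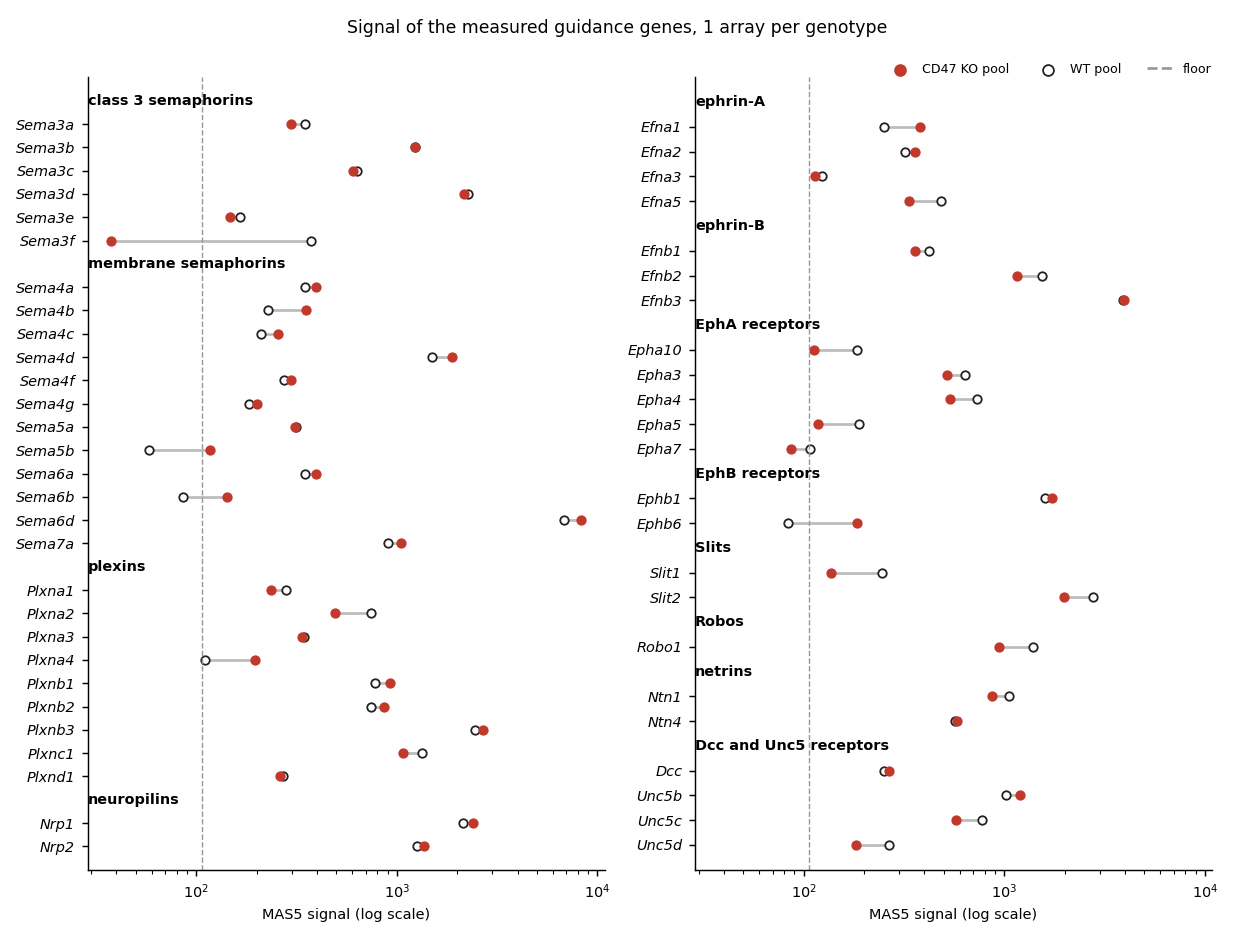
MAS5 signal (log scale, no unit) of the 52 measured guidance genes without Unc50, by class, with 1 filled point for the CD47 KO pool and 1 open point for the WT pool joined by a line, and the floor of 106.4 as a dashed line. Most pairs lie close together, Sema3f has the widest gap, and 5 genes have 1 of their points under the floor.

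The classes differed in the side on which their members lay. Membrane semaphorins were mostly higher in CD47 KO (11 of 12, median log2 ratio 0.21), whereas EphA receptors (0 of 5 higher, median -0.44), Slits (0 of 2, median -0.66) and Robo1 were lower. Plexins were divided, with 4 of 9 higher and a median of -0.03. The classes are few genes each, they were described with their values known, and no test of a class was made.

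**Figure D2:**
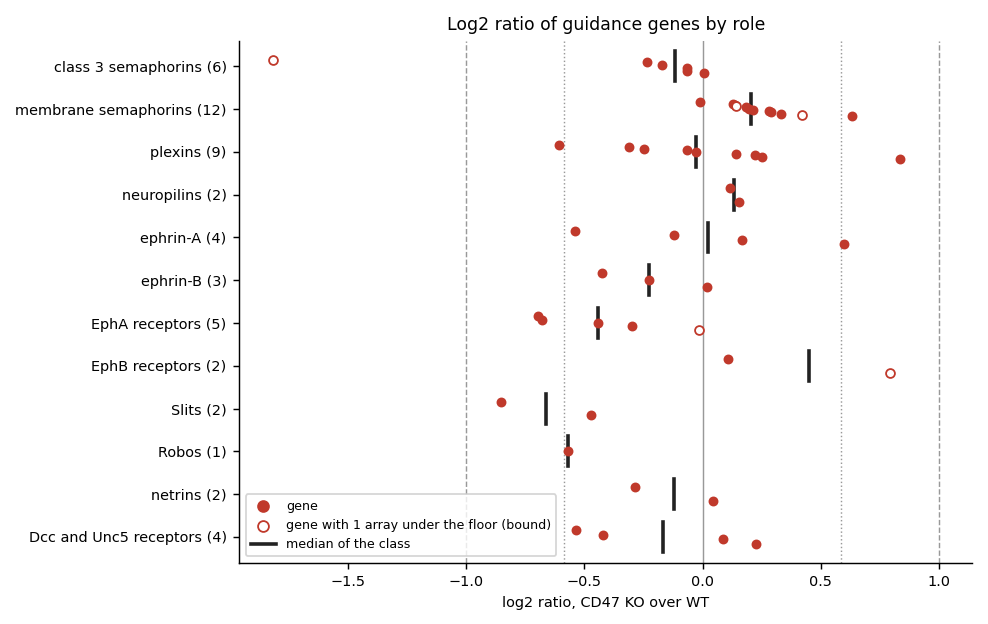
Log2 ratio of CD47 KO over WT for each measured guidance gene, in 12 rows by role with the number of genes in brackets. Filled points are genes above the floor in both arrays, open points are bounds, black bars are class medians, dotted lines mark 1.5-fold and dashed lines 2-fold. The membrane semaphorins lie between -0.01 and 0.63, and the EphA receptors between -0.70 and -0.02.

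Most secreted class 3 semaphorins repel axons that carry neuropilins, and Sema3a and Sema3f also act on the migration of oligodendrocyte precursors. Of 7 genes 6 were measured, and apart from Sema3f the signals of their brightest probe sets were close in both pools. Sema3f, a ligand of Nrp2, had a signal of 37.6 in CD47 KO, under the floor, and 374.9 in WT, which made it at least 3.52-fold lower in CD47 KO. The size of this bound is set by the floor, and it rests on 1 probe set that can bind other transcripts (its name ends in _x_at). The other 2 probe sets for Sema3f were under the floor in both arrays, with signals of 8.52 and 3.31 in CD47 KO and 11.3 and 8.87 in WT. Sema3d had 2161 in CD47 KO and 2260 in WT. Sema3b had 1237 in CD47 KO and 1231 in WT (log2 ratio 0.01), though its weakest probe set, with 208.6 in CD47 KO and 131.1 in WT, gave 0.67. Sema3a, a ligand of Nrp1, had 296.8 in CD47 KO and 348.9 in WT, and Sema3c and Sema3e had log2 ratios of -0.07 and -0.17. The second probe sets of Sema3a and Sema3e, under the floor in CD47 KO, were lower by more. They had 106.1 and 96.55 in CD47 KO and 155.7 and 139 in WT. Sema3g was under the floor in each pool.

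The membrane semaphorins are mostly transmembrane proteins, and of 13 genes 12 were measured, 11 of them higher in CD47 KO. Sema4b had a signal of 351.4 in CD47 KO and 226.9 in WT, 1.55-fold higher, on the 1 of its 2 probe sets above the floor. Sema4d, a ligand of plexin-B1 that oligodendrocytes express, had 1893 in CD47 KO and 1502 in WT (log2 ratio 0.33), and its second probe set had 697.9 in CD47 KO and 657.9 in WT (0.09). By their brightest probe sets all 6 Sema4 genes were higher in CD47 KO, at 0.13 to 0.63. For Sema4f, the lowest of them, the second probe set went the other way, with 63.6, under the floor, in CD47 KO and 149.9 in WT, at least 1.41-fold lower. Sema6d, which takes part in the crossing of retinal axons at the optic chiasm, had 8318 in CD47 KO and 6804 in WT (0.29), yet a second, much dimmer probe set had 167.5 in CD47 KO and 189.5 in WT (-0.18). Sema6a, a transmembrane ligand of plexin-A2 and plexin-A4, had 397.4 in CD47 KO and 347 in WT. Sema7a, which is held in the membrane by a lipid anchor and binds plexin-C1 and integrins, had 1044 in CD47 KO and 899.5 in WT. Sema5a, which oligodendrocyte-lineage cells of the optic nerve express and which inhibits retinal axons, was the exception in direction, with 312.4 in CD47 KO and 314.5 in WT, and its second probe set gave 0.29. Sema5b and Sema6b were above the floor only in CD47 KO, at 117.4 and 142.6 against 58.4 and 85.5 in WT, so that they were at least 1.10-fold and at least 1.34-fold higher with no upper limit given. Without them 9 of 10 were higher with the same median of 0.21. Over all probe sets of the class above the floor, 14 of 17 were higher in CD47 KO. In this count Sema5b and Sema6b could only be higher, and the second probe set of Sema4f could only be lower. Of the summed cell type markers, those of microglia were 2.0 and those of pituitary 2.5 times as high in CD47 KO as in WT. The pituitary sum was mostly Gh, and 3 of its 5 measured genes were higher. The sums for oligodendrocyte precursors and for astrocytes were each 1.11 and that for myelin 1.08 times as high in CD47 KO. The part of these cell types in the semaphorin values was not tested.

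The sequence at the start of Sema7a is shown as an example of the class, with the 250 bases before and the 50 bases after the start of the transcript, from RefSeq on assembly GRCm38.p6 at chr9:57939862-57940161 on the plus strand. Capitals mark any match, on either strand, with the box spelled GGGCGG, which factors such as Sp1 bind and which is named the GC box, or with the TATA box, spelled TATAAA; the motifs shared no base here, and Sema7a has 2 GC boxes and no TATA box.
Sema7a: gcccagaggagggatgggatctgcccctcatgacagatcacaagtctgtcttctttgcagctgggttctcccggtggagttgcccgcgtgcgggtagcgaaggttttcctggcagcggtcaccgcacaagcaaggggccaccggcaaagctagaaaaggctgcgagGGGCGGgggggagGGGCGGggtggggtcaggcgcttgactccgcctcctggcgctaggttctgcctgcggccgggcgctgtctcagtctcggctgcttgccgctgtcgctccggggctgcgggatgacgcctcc

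Of the 52 measured guidance genes 42 had such windows in the table, 55 in all, and 41 of the windows (74.5%) held a GC box, against 35.7% of 32851 windows of all genes. A TATA box was found in 2 of the 55 windows (3.64%), against 13.6% of all windows. Among the membrane semaphorins 14 of 20 windows held a GC box, and among the EphA receptors 5 of 6 did. These are matches of letters and were not linked to the signals. The windows of all genes came from 27025 genes, whether or not they were measured, whereas the guidance windows came only from measured genes. The shares are therefore of unlike sets, and windows of all measured genes were not counted.

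Plexins, the receptors of semaphorins, were all measured, and the plexin-A genes lay on both sides of 0, with 1 of 4 higher in CD47 KO. Plxna2, a receptor of Sema6a, had 490 in CD47 KO and 745.7 in WT, 1.52-fold lower, and its other 3 probe sets were lower too, with log2 ratios of -0.62, -0.04 and -0.36. Plxna4, which carries Sema3a signals together with Nrp1, had 197.2 in CD47 KO and 110.5 in WT, 1.78-fold higher, on 1 probe set whose WT signal was just above the floor. Its other probe set was under the floor in each pool. Plxna1 and Plxna3 were at -0.25 and -0.03. The 3 plexin-B genes were each slightly higher in CD47 KO. Plxnb3, a receptor of Sema5a that oligodendrocytes express, had 2697 in CD47 KO and 2445 in WT (0.14), and a second probe set gave 0.31. Plxnb1, the receptor of Sema4d, had 929.6 in CD47 KO and 780.3 in WT (0.25), but its second probe set had 599.3 in CD47 KO and 683.7 in WT (-0.19). Plxnb2 had 865.7 in CD47 KO and 741.5 in WT (0.22). Plxnc1, the receptor of Sema7a, was lower on both of its probe sets above the floor, with 1079 and 191 in CD47 KO and 1338 and 282.9 in WT (-0.31 and -0.57). Plxnd1, the receptor of Sema3e, had 260.1 in CD47 KO and 272.1 in WT.

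The neuropilins, co-receptors of class 3 semaphorins and of vascular endothelial growth factor, were close in both pools. Nrp1 had 2389 in CD47 KO and 2147 in WT (log2 ratio 0.15), and its other 3 probe sets ranged from -0.01 to 0.42. Nrp2 had 1361 in CD47 KO and 1256 in WT (0.12), with further probe sets at -0.18 and 0.38. Neither neuropilin had a direction that held over its probe sets.

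Ephrin-A proteins are tied to the membrane by a lipid anchor and ephrin-B proteins span it. Of 5 ephrin-A genes 4 were measured, 2 on each side. Efna1 had 382.6 in CD47 KO and 252.8 in WT, 1.51-fold higher, on the only one of its 2 probe sets above the floor. Efna5, whose gradient helps to map retinal axons onto their targets, had 334.8 in CD47 KO and 486.1 in WT (log2 ratio -0.54), again on 1 of 2 probe sets. Efna2 and Efna3 had ratios of 0.17 and -0.12.

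Of the ephrin-B genes, Efnb2, a marker of arterial endothelium and ligand of EphB receptors, had 1154 in CD47 KO and 1550 in WT (log2 ratio -0.43), and its second probe set gave -0.31. Efnb1 was lower on 3 of 3 probe sets, with 359, 141.9 and 143.6 in CD47 KO and 420.4, 250.7 and 194.6 in WT. The second of these had the largest difference of the 3, with a log2 ratio of -0.82. Efnb3, a repellent ephrin of the midline that myelinating oligodendrocytes also express, had 3946 in CD47 KO and 3900 in WT (0.02). Of the ephrin-B probe sets above the floor, 5 of 6 were lower in CD47 KO. Vessel and mural cell markers summed to 15380 in CD47 KO and 18990 in WT, with 8 of 11 measured lower, and their part in the Efnb2 value was not tested.

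EphA receptors are the tyrosine kinases that bind ephrin-A, and 5 of 9 were measured, none of them higher in CD47 KO. Epha10, which lacks kinase activity, had 113.3 in CD47 KO and 183.6 in WT, 1.62-fold lower, on its single probe set. Epha5, a receptor of retinal axons, had 118.1 in CD47 KO and 189.1 in WT, 1.60-fold lower, and its other probe sets had 115.1 and 88.1 in CD47 KO and 168.7 and 128.3 in WT. Both genes lay close to the floor. Epha3 had 516.2 in CD47 KO and 634.8 in WT (log2 ratio -0.30), and a second probe set gave -0.47. Epha4, which binds ephrins of both classes, had 537.4 in CD47 KO and 729.1 in WT (-0.44). Its other 3 probe sets disagreed, with 312.8, 213.5 and 251.8 in CD47 KO and 265.4, 315.8 and 229.2 in WT, so that 2 were higher and 1 lower. Epha7 was only just above the floor, with 86.3 in CD47 KO and 107.6 in WT. Over the class 9 of 11 probe sets above the floor were lower in CD47 KO. Among them, that of Epha7 and the dimmest of Epha5 passed the floor only in WT, so they could only count as lower. Without Epha7, 0 of 4 EphA genes were higher, with a median log2 ratio of -0.56. Epha8, under the floor in both arrays, had 84.7 in CD47 KO and 31.5 in WT. Neuronal markers summed to 0.616 times their WT level, with 14 of 15 measured genes lower and Tubb3 at 0.01, with Slc17a7 under the floor in both arrays and none of the others under it. Their part in the EphA values was not tested.

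The start of Epha4, the EphA gene with the most probe sets above the floor, lies at chr1:77515039-77515338 on the minus strand and has 1 GC box, in capitals.
Epha4: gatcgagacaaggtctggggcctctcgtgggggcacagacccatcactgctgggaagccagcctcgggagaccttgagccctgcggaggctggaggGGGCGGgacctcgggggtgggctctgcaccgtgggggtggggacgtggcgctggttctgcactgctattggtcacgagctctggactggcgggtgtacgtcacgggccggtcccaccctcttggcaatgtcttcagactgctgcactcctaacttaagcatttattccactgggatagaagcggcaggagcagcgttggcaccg

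EphB receptors bind ephrin-B, and 2 of 4 were measured. Ephb1, which directs the retinal axons that stay on their own side at the chiasm, had 1725 in CD47 KO and 1603 in WT (log2 ratio 0.11). Ephb6, which lacks kinase activity, had 184.5 in CD47 KO and 83.2, under the floor, in WT, at least 1.73-fold higher, on a single probe set. Ephb3 and Ephb4 were under the floor in both arrays.

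Slits are secreted repellents that keep retinal axons on course, and Robo1 is one of their receptors; all 3 measured genes of this pathway were lower in CD47 KO. Slit1 had 136.9 in CD47 KO and 246.9 in WT, 1.80-fold lower, and its second probe set had 101.8, under the floor, in CD47 KO and 121.8 in WT. Slit2 had 1992 in CD47 KO and 2764 in WT, 1.39-fold lower, and its 2 dimmer probe sets had 183.7 and 127.8 in CD47 KO and 221.9 and 125.5 in WT, with ratios of -0.27 and 0.03. Robo1 had 941.1 in CD47 KO and 1394 in WT, 1.48-fold lower, on the 1 of its 3 probe sets above the floor. Slit3, Robo2 and Robo3 were under the floor. Beside these values, neuronal markers (above) and meningeal and fibroblast markers were lower in CD47 KO, the meningeal list with 11 of 11 genes lower and sums of 62910 in CD47 KO and 74570 in WT. Their part in the Slit and Robo values was not tested.

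The starts of Slit2 and Robo1, a ligand and its receptor that were both lower in CD47 KO, differ in these motifs. That of Slit2, at chr5:47982905-47983204 on the plus strand, has 3 GC boxes and 1 TATA box, and that of Robo1, at chr16:72662899-72663198 on the plus strand, has neither.
Slit2: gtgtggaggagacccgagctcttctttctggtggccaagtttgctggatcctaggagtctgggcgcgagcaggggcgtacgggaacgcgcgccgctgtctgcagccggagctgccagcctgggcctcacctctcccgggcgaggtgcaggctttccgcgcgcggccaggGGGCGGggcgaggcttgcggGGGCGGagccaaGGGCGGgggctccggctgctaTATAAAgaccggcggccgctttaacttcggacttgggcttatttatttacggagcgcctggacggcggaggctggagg
Robo1: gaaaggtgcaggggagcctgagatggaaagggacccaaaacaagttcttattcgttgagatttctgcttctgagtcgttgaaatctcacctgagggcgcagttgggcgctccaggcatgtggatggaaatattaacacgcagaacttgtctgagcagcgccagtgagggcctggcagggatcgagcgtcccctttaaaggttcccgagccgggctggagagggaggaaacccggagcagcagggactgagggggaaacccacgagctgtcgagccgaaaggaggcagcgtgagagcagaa

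Netrins attract or repel according to the receptor they meet, and netrin-1 with its receptor Dcc guides retinal axons into the optic nerve. Ntn1 had 864.9 in CD47 KO and 1055 in WT (log2 ratio -0.29), and Ntn4, a netrin of basement membranes, had 585.1 in CD47 KO and 568.2 in WT (0.04). Dcc had 265.7 in CD47 KO and 250.4 in WT (0.09), while its dimmer probe sets gave -0.25 and -0.32. Among the Unc5 genes, receptors for repulsion by netrins, Unc5b had 1194 in CD47 KO and 1020 in WT (0.23) and a second probe set at -0.11. Unc5c had 576.8 in CD47 KO and 772.6 in WT (-0.42) and a second probe set at 0.07. Unc5d had 183.2 in CD47 KO and 265.1 in WT (-0.53), on its single probe set. Ntn3 and Unc5a were under the floor. Unc50, a protein of the Golgi that shares only its letters with these receptors, had 5134 in CD47 KO and 4566 in WT.

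**Figure D3:**
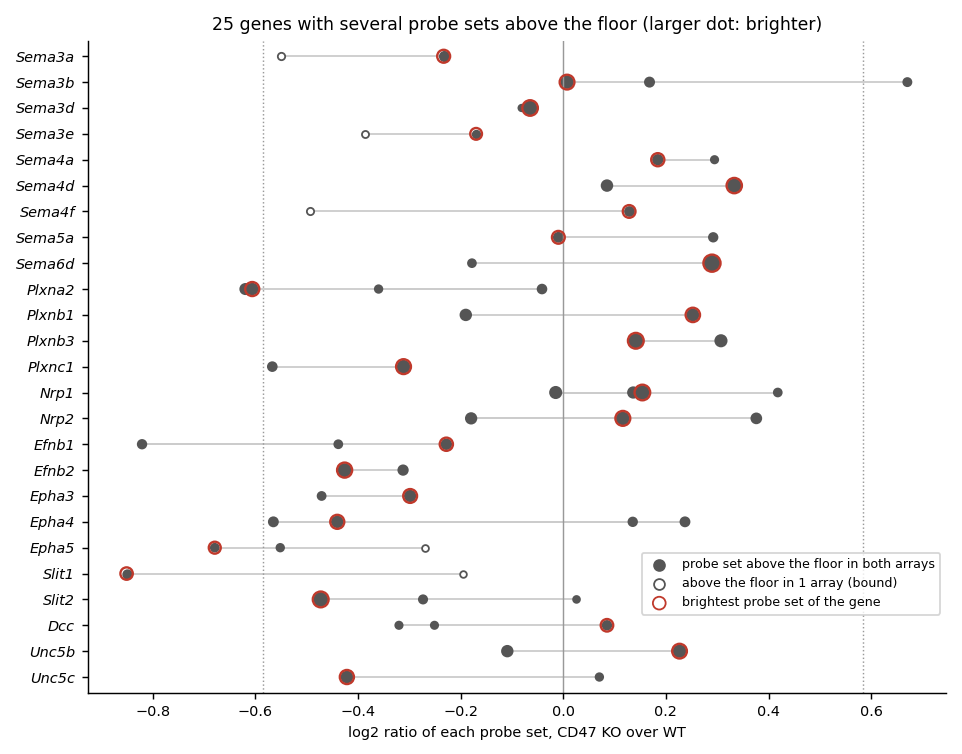
Log2 ratio of CD47 KO over WT for every probe set above the floor, for the 25 guidance genes that had at least 2 such probe sets. Filled points passed the floor on both arrays, open points are bounds, larger points are brighter, and a red ring marks the probe set that stands for the gene. For 11 genes, among them Epha4, Nrp1 and Sema6d, the points lie on both sides of 0.

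Genes that work beside these cues were read from 2 lists. Of 21 co-receptors and other ligands 18 were measured, with 10 higher in CD47 KO and a median log2 ratio of 0.02. Of the 18, 1 was over 1.5-fold higher and 3 over 1.5-fold lower, against 4.02% and 4.68% of all genes. Chl1, a neural adhesion molecule that binds neuropilin-1, had 3481 in CD47 KO and 2132 in WT, 1.63-fold higher. Dscam, a netrin receptor, had 117.6 in CD47 KO and 237.7 in WT, 2.02-fold lower, and 0.818% of all genes were over 2-fold lower. L1cam, an adhesion molecule that joins the Sema3a receptor, was over 1.5-fold lower, with 372.7 in CD47 KO and 563.4 in WT. Ntng1, a netrin-G of axons that does not bind Dcc, was at least 1.66-fold lower, with 83 in CD47 KO and 176.1 in WT. Of 54 signalling and cytoskeletal genes 49 were measured, 26 higher in CD47 KO, with a median of 0.01. None of these 49 was over 1.5-fold higher in CD47 KO, against 4.02% of all genes, and 3 were over 1.5-fold lower, against 4.68%. The 3 lower genes were Dpysl5 (106.7 in CD47 KO and 169.6 in WT) and Crmp1 (278.1 in CD47 KO and 423.7 in WT), of the collapsin response mediator family, and Tiam1, an activator of Rac (200.3 in CD47 KO and 305.8 in WT).

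**Figure D4:**
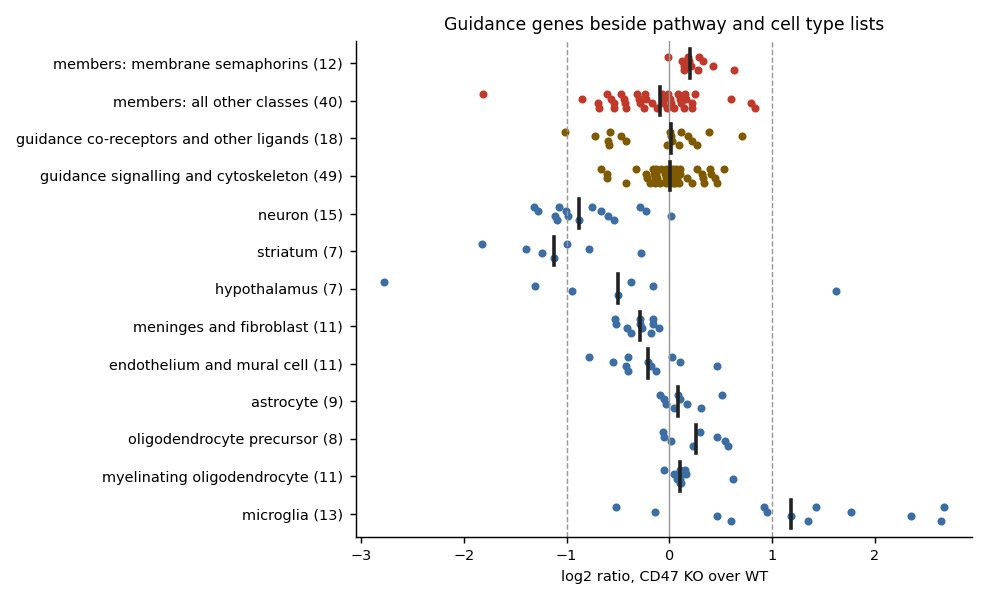
Log2 ratio of CD47 KO over WT for the measured genes of the membrane semaphorins, the other guidance classes, 2 pathway lists and 9 marker lists of cell types and regions, with the number of genes in brackets and the median as a black bar. Dashed lines mark 2-fold. The guidance and pathway genes lie around 0, the neuronal and striatal markers mostly below it and the microglial markers mostly above it.

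In all, 16 of the 69 symbols were under the floor in both arrays, so no ratio was taken for them. The members nearest above the floor were Epha7, with 86.3 in CD47 KO and 107.6 in WT, and Sema5b, with 117.4 in CD47 KO and 58.4 in WT, and those nearest below it were Epha8, with 84.7 in CD47 KO and 31.5 in WT, and Efna4, with 73.2 in CD47 KO and 74.8 in WT.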

How the data were processed

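RNA of optic nerve and optic tract was measured on 1 Affymetrix mouse genome 430 2.0 array per genotype, each of pooled RNA from several mice. The authors labelled cRNA with a 3' in vitro transcription kit, and the deposited values are linear signal intensities, 1 for each probe set, made with MAS5 per the submitters' processing notes (no version named there). The mean of each array, after 2% was trimmed at each end, was 500.0029, and the medians were 105 in CD47 KO and 107.8 in WT. MAS5 values near background are noisy, which the floor limits and which shortens ratios of dim genes.

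From 45101 probe sets, 64 controls were left out. Genes were named from the platform annotation (34945 probe sets with 1 symbol, 932 with several and 9160 with none; only the first were used), and all 69 guidance symbols were found in RefSeq genes of GRCm38.p6. Signals under the 50th percentile of both arrays were set to it, and the brightest probe set by mean log2 signal stood for a gene. Genes named were those over 1.5-fold, the brightest and the extreme members of each class and those next to the floor; others were added after their values were seen, as were the promoters shown, chosen from classes whose members lay mostly on 1 side. The guidance genes, classes and lists were chosen with earlier results of these data known. The study's threshold was 2-fold, and 1.5-fold is given beside it. With 1 array per genotype no p-value or SD between mice can be had, and precision is limited by there being only 2 arrays. The alternatives were other floors, no floor, an offset, quantile, median or loess scaling, the median over probe sets, and leaving out probe sets that can bind other transcripts. Steps were tested on simulated data. Python 3.11.15, pandas 2.3.3, numpy 2.4.6 and statsmodels 0.14.6 were used.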

Additional observations from a re-analysis of the deposited data

How the results depend on the processing

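Over 9 alternative settings none of the 9 guidance genes over 1.5-fold changed side where it was measured, and the median of all genes moved by less than 0.1 on the log2 scale. Another floor, no floor or an offset cannot change the side of a gene, so only the scalings and the choice of probe sets could have. For genes with 1 probe set above the floor, such as Plxna4 and Ephb6, the median over probe sets repeats the same value. The number of genes over 1.5-fold depended on the settings. A floor at the 60th percentile left 2 of 46 genes higher and 2 lower in CD47 KO (346 and 352 of all 10838), an offset of 100 in place of the floor left 1 of 53 higher and 1 lower (354 and 361 of all 12473), and with the median over the probe sets of a gene 2 were lower (509 of all 12491). When the floor was the 40th percentile 6 of 56 genes were higher (662 of all 13958), and without a floor 6 of 53 were (635 of all 12473). Over 2-fold, 1 of 56 guidance genes was higher with the lower floor, at the 40th percentile, beside 212 among 13958 measured genes. Without a floor 2 of 53 were higher, beside 250 among 12473. Leaving out probe sets that can bind other transcripts removes Sema3f, and 0 of 52 were then over 2-fold lower, beside 87 among 12091. The log2 ratio of Sema3f was -2.47 when the floor was the 40th percentile and -3.32 without a floor, and -1.003 when it was the 60th, since its CD47 KO signal is under all of these floors.

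At the 60th percentile Plxna4 was at 0.08, Epha5 at -0.02 and Slit1 at -0.40, and the EphB median was 0.11 from 1 gene. The Slit median was -0.40 with the median over probe sets. The median of the membrane semaphorins stayed within 0.20 to 0.25, with 9 to 12 genes higher in CD47 KO, and no Slit or Robo gene was higher in any of the settings. For these genes too, the floors and the offset could not have changed a side. Of the EphA receptors 1 was higher at the 40th percentile, and 1 with loess. No paired analysis was possible because each genotype has 1 array. With 1 pool each, neither the spread between mice nor that between hybridisations is known, and dim genes are limited by background.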
